A study of Mus musculus with 10 samples.

Results

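The regions described here are 324 stretches of open chromatin that carried a peak in mouse fibroblasts and again at day 9 of reprogramming, but none at day 3 and none in embryonic stem cells. They were selected on presence and absence of peaks: overlapping peaks were merged across 10 ATAC-seq peak lists into 208851 regions, and those with a peak, by at least 1 bp, in both fibroblast (MEF) lists and both day 9 (DAY9) lists and in no day 3 (DAY3) and no embryonic stem cell (ESC) list were kept. The 324 are 0.155% of all merged regions. The peak calls of these 8 libraries chose them. Their presence in MEF and DAY9 and their absence at DAY3 and in ESC are thus descriptions and were not tested. "Closed" and "reopened" therefore stand for a missing and a listed peak. The day 6 (DAY6) lists had no part in the presence rule, but their peaks took part in the merging. With DAY6 replicate 1 or 2 left out, 323 and 320 of the 324 were still among the members.

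ATAC-seq marks open chromatin with a transposase that inserts sequencing adapters where DNA is not wrapped up. The series followed fibroblasts through reprogramming in 10 libraries of 5 stages, 2 per stage, under 1 batch name. The MEF, DAY3, DAY6 and DAY9 cells were of strain C57BL/6 x 129 and had the genotype OKSM Col1a1/M2rtTA ROSA26, that is, a doxycycline-inducible cassette of the factors Oct4, Klf4, Sox2 and Myc at Col1a1 and the activator M2rtTA at ROSA26. MEF were unsorted and kept in MEF medium without doxycycline. DAY3, DAY6 and DAY9 cells had been in ESC medium with doxycycline at 1 ug/ml and ascorbic acid at 50 ug/ml for 3, 6 and 9 days; DAY3 cells were unsorted, and DAY6 and DAY9 cells were sorted for the surface marker SSEA1. ESC were the line V6.5, also labelled C57BL/6 x 129, unsorted, without the cassette, grown with LIF on irradiated feeder cells, which are themselves fibroblasts and may remain in the harvest. Sorting coincides with days 6 and 9, so an effect of the sort and one of the day cannot be told apart. In such bulk libraries a smaller share of cells with an open region and a weaker opening in each cell cannot be told apart either.

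Reprogramming replaces the open chromatin of a somatic cell by that of a pluripotent one. Fibroblast regions that hold binding sites of somatic factors, among them the AP-1 family, tend to close early, while regions bound by the reprogramming factors open in steps. SSEA1 is a surface sugar that appears on cells progressing towards pluripotency, so that sorting for it leaves behind cells that stall.

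The DNA letters that can be shown for these regions are those of promoters, 300-base windows from RefSeq on GRCm38.p6 that hold 250 bases before and 50 after a gene start. A member touched 17 such windows of 15 genes, 10 of them protein-coding. Members at 4 of these starts are shown, chosen after their values were seen: Sprr1a and Arhgef10l because they hold matches to the AP-1 motif, Matk and Trim47 as gene starts without one. Each line gives the 250 bases before the start, 5′ to 3′ on the strand of the gene. Capitals mark matches on either strand to the AP-1, TEAD, KLF and TATA box motifs, whose letters are given after the sequences, and matches that overlap run together. Sprr1a is at chr3:92485882-92486131 (minus strand), Arhgef10l at chr4:140665888-140666137 (minus strand), Matk at chr10:81252685-81252934 (plus strand) and Trim47 at chr11:116110236-116110485 (minus strand).
Sprr1a: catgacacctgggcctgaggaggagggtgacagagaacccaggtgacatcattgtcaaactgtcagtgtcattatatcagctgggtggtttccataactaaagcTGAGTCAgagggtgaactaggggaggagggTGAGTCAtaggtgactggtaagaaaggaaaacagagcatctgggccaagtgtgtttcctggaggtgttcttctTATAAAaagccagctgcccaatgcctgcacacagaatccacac
Arhgef10l: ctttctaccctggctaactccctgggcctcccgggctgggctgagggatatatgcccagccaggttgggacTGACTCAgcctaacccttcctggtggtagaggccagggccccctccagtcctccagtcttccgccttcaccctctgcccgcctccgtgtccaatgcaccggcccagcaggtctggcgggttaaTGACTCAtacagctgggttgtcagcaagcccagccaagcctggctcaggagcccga
Matk: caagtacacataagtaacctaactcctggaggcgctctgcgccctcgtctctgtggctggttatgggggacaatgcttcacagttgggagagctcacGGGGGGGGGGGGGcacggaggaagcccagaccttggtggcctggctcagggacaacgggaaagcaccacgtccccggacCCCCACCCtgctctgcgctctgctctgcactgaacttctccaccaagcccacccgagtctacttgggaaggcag
Trim47: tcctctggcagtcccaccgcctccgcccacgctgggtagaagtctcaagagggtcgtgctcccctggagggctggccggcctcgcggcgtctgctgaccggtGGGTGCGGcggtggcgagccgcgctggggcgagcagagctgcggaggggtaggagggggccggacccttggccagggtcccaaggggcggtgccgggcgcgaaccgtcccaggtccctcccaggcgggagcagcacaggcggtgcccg

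The AP-1 letters TGANTCA were in the 300-base windows of 2 of the 15 genes, against 7.81% of 32851 promoter windows of the same length. Both, Sprr1a and Arhgef10l, held 2 matches. The TEAD letters GGAATG were in 5 of 15, against 14.7% of all windows, and the KLF letters GGGNGNGG in 7 of 15, against 49.5%. TGTGGT (RUNX) was in 1 of 15, against 16.8%, the TATA box TATAAA in 3 of 15, against 13.6%, CCAAT in 6 of 15, against 37.4%, and CCGGAA (ETS) in 2 of 15, against 14.9%. The octamer ATGCAAAT was in none of the 15, against 1.74% of all windows. With 15 genes these counts are descriptions: a match is not a binding site, and no match says only that the letters are not in the window.

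The member at Sprr1a, a gene of the cornified envelope of skin, spanned chr3:92485738-92486806. Fold enrichment is the authors' ratio of the pileup to its background; its scale differs between lists of different depth, so the percentile of the score within each list is named where it gives another order of MEF and DAY9. The fold was 5.44 and 2.57 in MEF replicates 1 and 2, 3.82 and 6.31 at DAY6, and 6.60 and 5.73 at DAY9. Both DAY9 values lay above both MEF values, by fold and by percentile, and the lower MEF value was among the weakest peaks of its list, at percentile 3.64 of the scores. At Arhgef10l, which encodes a guanine nucleotide exchange factor, the member at chr4:140665673-140666205 had folds of 3.62 and 4.61 in MEF and 3.00 and 3.22 at DAY9, with no DAY6 peak. At Matk, a kinase related to Csk, the member at chr10:81252534-81253480 had folds of 3.46 and 3.13 in MEF, 4.22 and 4.79 at DAY6 and 4.61 and 4.00 at DAY9. At Trim47, of the tripartite motif family, the member at chr11:116109418-116110895 had 3.41 and 2.82 in MEF, 5.45 in DAY6 replicate 2 alone, and 3.23 and 2.92 at DAY9; a DAY3 peak lay 324 bp away. Matk was higher at DAY9 by fold and by percentile. The folds overlapped at Trim47, where both MEF percentiles (26.3 and 25.4) lay above those of DAY9 (24.9 and 17.6). At Arhgef10l the folds were higher in MEF, but the percentiles overlapped, with MEF replicate 1 the lowest of the 4 and MEF replicate 2 (65.3) the highest.

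Few fibroblast regions that lost their peaks by day 3 and lacked them in ESC had them at day 9. Of 46089 regions with a peak in both MEF lists, 18465 had no DAY3 and no ESC peak, and the 324 members are 1.75% of these. Another 353 (1.91%) had a peak in 1 DAY9 library, and 17788 (96.3%) had none.

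The lists differed in length and depth, which sets what could be listed. Peaks numbered 45766 and 45497 at DAY3, the shortest lists, 58969 to 78308 in the MEF, DAY6 and DAY9 lists, and 86585 and 88980 in ESC. The commonest expected pileup, a measure of relative depth, was 5.30 and 5.27 at DAY3, 7.33 and 7.37 at DAY9, 3.42 and 8.32 in MEF, 3.45 and 2.33 at DAY6 and 3.48 and 5.46 in ESC. Total reads are not given in the sources used here. The 2 DAY3 libraries differed by 1.33 times counting noise and the 2 DAY9 libraries by 1.42 times, against 3.62 to 8.11 within the other stages and 3.95 to 31.5 over 40 pairs of libraries of different stages; each of these near-identical pairs counts as 1 sample here, so both the absence at day 3 and the return at day 9 rest on 1 sample. The labels do not say whether libraries of a stage came from separate cultures. Of 15 fibroblast marker genes, 13 and 11 had a peak at their start in the MEF lists, 9 and 10 at DAY3, 8 and 8 at DAY6, 7 and 7 at DAY9 and 8 and 8 in ESC. Fibroblast markers with a peak were thus no more numerous at DAY9 than at DAY3. Of 15 pluripotency markers, 3 and 6 had one in MEF, 12 and 11 at DAY9 and 15 and 14 in ESC, and of 10 epithelial markers 3 and 0 in MEF, 4 and 3 at DAY3 and 9 and 10 at DAY9. Endothelial markers with a peak numbered 3 and 5 of 12 in MEF and 7 and 5 at DAY9, macrophage and blood markers 2 and 3 of 12 and 4 and 5, skeletal muscle markers 2 and 2 of 12 and 4 and 4, and neural markers 7 and 5 of 12 and 10 and 10. In the same order of cell types, DAY3 had 6 and 4, 4 and 6, 1 and 2, and 5 and 5. ESC had 8 and 7, 4 and 3, 6 and 5, and 9 and 10. Counts like those of DAY9 were thus also found at DAY3 or in ESC. A peak at a gene start is not expression, and the part of any of these cell types in the members was not tested.

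How much a missing DAY3 peak says depends on the strength of the member at the other stages. The smallest fold that reaches the −log10 p-value of 5 at the list background was 3.01 and 3.03 in the DAY3 lists and 3.35 and 2.94 in the ESC lists, against 2.64 and 2.63 at DAY9 and 3.40 and 2.57 in MEF. Of the 324 members, 171 (52.8%) were above the higher DAY3 limit in both DAY9 lists, 190 (58.6%) in both MEF lists and 106 (32.7%) in all 4. In both DAY9 lists 66 members lay below it, so the same fold at day 3 would not have been listed against the common background. Above the higher ESC limit in all 4 lists were 63 members (19.4%). For the 153 members not above the DAY3 limit in both DAY9 lists, those 66 among them, the lists do not show closure at day 3. For the 171 above it a missing peak is not proof of closure either. The limit holds for the commonest background, and the scale of the fold differs between lists.

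The members' peaks were weaker than most peaks of their lists. Their median fold was 5.14 and 3.22 in MEF (n = 324), 3.82 and 4.29 at DAY6 (n = 141 and 139 members with a peak) and 3.45 and 3.46 at DAY9 (n = 324). Below the median score of the list lay 57.7% and 67.0% of the members in MEF, 85.1% and 87.1% of those with a DAY6 peak, and 78.7% and 79.3% at DAY9. At DAY9 the median percentile was 29.2 and 31.6. It was 38.6 and 38.5 for 10001 regions with peaks in both DAY9 lists but in no MEF, DAY3 or ESC list, and 48.8 and 48.7 for 970 regions that also had both DAY3 peaks. In MEF the members' median percentiles of 45.1 and 39.4 lay below the 53.7 and 52.9 of the 17788 fibroblast regions without a DAY9 peak. The members' strength in MEF said little about that at DAY9. Across the 324 members, Spearman's correlation between the percentiles was 0.06 for MEF and DAY9 replicate 1 and 0.08 for replicate 2. Between the MEF lists it was 0.40 and between the DAY9 lists 0.61. Low values for MEF and DAY9 were not particular to the members. Regions that also had both DAY3 peaks gave −0.015 and −0.033, and those that also had both ESC peaks −0.007 and −0.011. These values describe regions that share libraries and a lower limit.

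**Figure D1:**
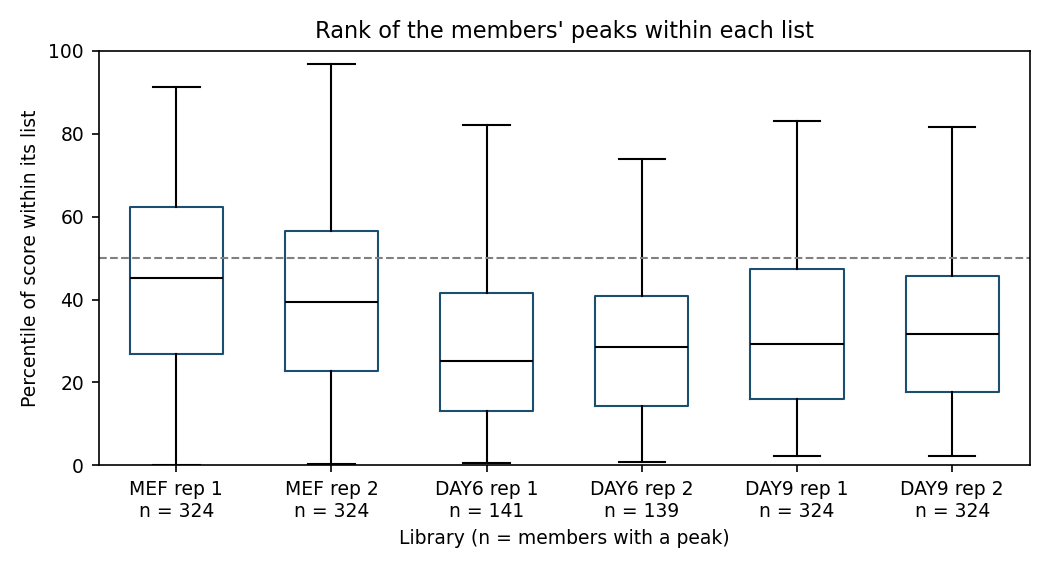
Percentile of the score within its own list (y axis, 0 to 100) for the members' peaks in each MEF, DAY6 and DAY9 library (x axis, with the number of members that had a peak). Boxes span the quartiles, the line inside is the median, whiskers reach the lowest and highest member, and the dashed line is the middle of each list; all 6 medians lie below it, from 25.2 in DAY6 replicate 1 to 45.1 in MEF replicate 1.

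The box plot of percentiles shows that members reach into the upper part of each list, while their boxes at DAY6 and DAY9 end below the middle. The strongest members were ranked by the lowest of their 4 percentiles in the MEF and DAY9 lists. The 12 at the top are named by the nearest protein-coding gene, with no statement that the region acts on it.

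The first was a region at chr7:35920078-35921646, 117.1 kb from Zfp507, which encodes a zinc finger protein. Its folds were 9.19 and 5.69 in MEF and 10.2 and 9.56 at DAY9, with 5.11 in DAY6 replicate 2 alone. Both DAY9 folds exceeded both MEF folds, but the percentiles overlapped (74.4 and 76.1 in MEF, 77.1 and 75.8 at DAY9), and the nearest DAY3 peak was 70.6 kb away. The second lay inside Nectin4, which encodes an adhesion molecule of epithelial junctions, at chr1:171375405-171376219. It had folds of 7.27 and 4.37 in MEF and 5.49 and 6.51 at DAY9 and no DAY6 peak, and the MEF and DAY9 values overlapped. The third, at chr2:5730229-5730949 and 15.4 kb from Camk1d, a calcium/calmodulin-dependent kinase gene, had 10.8 and 8.40 in MEF, 6.29 and 3.61 at DAY6 and 7.10 and 7.41 at DAY9. There the fibroblast values were the higher ones. A second member nearest to Camk1d, at chr2:5318687-5319249 inside the gene, had 10.6 and 5.98 in MEF, 5.11 in DAY6 replicate 2 and 4.56 and 4.90 at DAY9, again lower at DAY9.

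Metabolic and translation genes were nearest to others. Inside Uqcrc1, a core subunit of mitochondrial complex III, the member at chr9:108948957-108950333 had folds of 5.61 and 3.73 in MEF and 7.05 and 8.48 at DAY9, with no DAY6 peak. Near Tamm41, whose product takes part in cardiolipin synthesis, the member at chr6:114987959-114989066 had 5.66 and 4.61 in MEF and 9.85 and 8.79 at DAY9, again without a DAY6 peak. Both had higher folds at DAY9; the percentiles were close at Uqcrc1 (69.1 and 64.8 in MEF, 69.1 and 72.5 at DAY9) and apart at Tamm41 (49.1 and 65.3 in MEF, 83.0 and 81.5 at DAY9). The member nearest to Eif4g2, a translation initiation factor gene 73.4 kb away, at chr7:111156412-111157248, had 6.14 and 5.81 in MEF, 3.37 in DAY6 replicate 1 alone and 7.45 and 6.09 at DAY9. At chr5:45127662-45128591, 305.4 kb from Qdpr, which encodes an enzyme that regenerates tetrahydrobiopterin, the folds were 7.47 and 4.40 in MEF, 5.71 in DAY6 replicate 2 alone and 5.28 and 5.14 at DAY9. Near Qdpr the folds overlapped, while both MEF percentiles (64.4 and 62.4) lay above those of DAY9 (55.0 and 53.7).

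Regulators and surface proteins made up the remaining named genes. The member nearest to Irf2, an interferon regulatory factor, at chr8:46869323-46870020, had folds of 6.39 and 3.93 in MEF, 3.91 in DAY6 replicate 2 alone and 7.57 and 5.97 at DAY9. The member 53.1 kb from Emx2, a homeobox gene of the developing forebrain and urogenital tract, at chr19:59518440-59519795, had 5.66 and 5.29 in MEF, 5.84 in DAY6 replicate 1 alone and 9.61 and 7.41 at DAY9. Near Emx2 both DAY9 folds lay above both MEF folds, but the percentiles overlapped (49.1 and 77.5 in MEF, 75.6 and 68.4 at DAY9), and near Irf2 both measures overlapped. The member near Rgs4, a regulator of G protein signalling, at chr1:169730114-169731135, had 8.53 and 5.15 in MEF, 5.80 and 4.51 at DAY6 and 5.19 and 7.41 at DAY9. Near Cpm, a membrane carboxypeptidase gene, the member at chr10:117519066-117520225 had 7.11 and 4.60 in MEF, 5.04 and 6.91 at DAY6 and 6.89 and 4.51 at DAY9. Near Epha7, an ephrin receptor gene 219.7 kb away, the member at chr4:29187175-29188700 had 5.66 and 4.40 in MEF, 6.51 and 9.09 at DAY6 and 4.92 and 5.02 at DAY9. At these last 3 the region was listed in both DAY6 libraries, and near Rgs4 the folds of MEF and DAY9 overlapped while both MEF percentiles (85.9 and 71.3) lay above those of DAY9 (54.5 and 68.4). Near Epha7 the DAY6 folds were the highest, but the DAY6 percentiles (57.9 and 70.2) overlapped those of MEF (49.1 and 62.4).

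**Figure D2:**
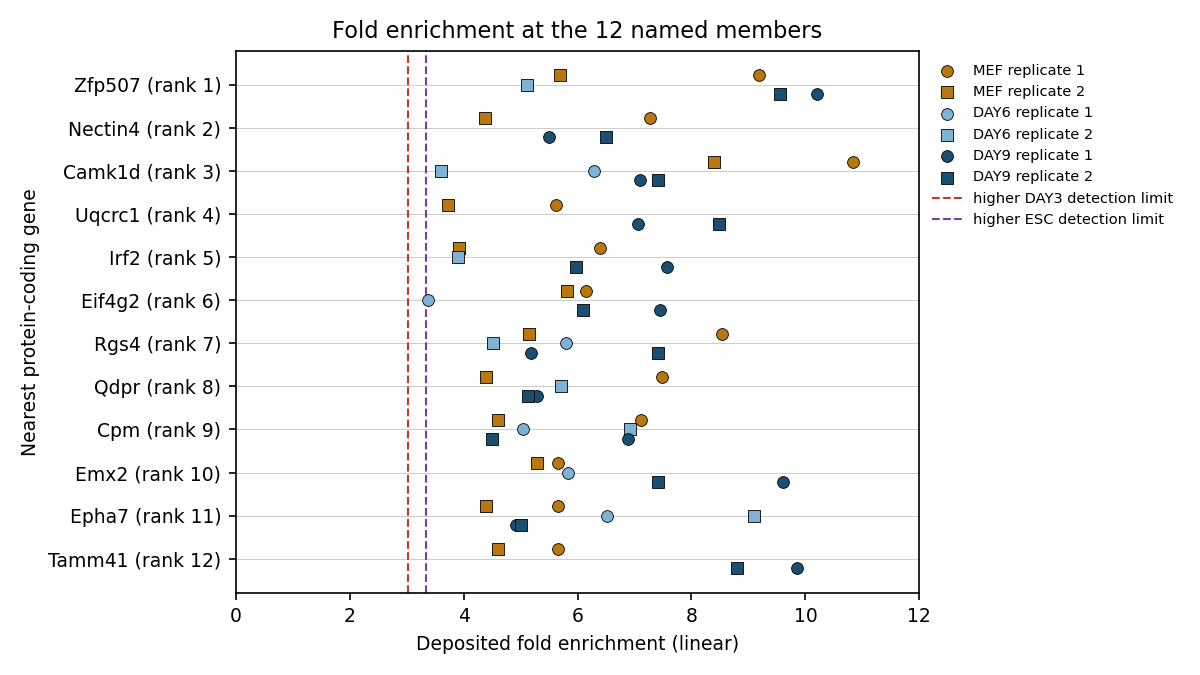
Deposited fold enrichment (x axis, linear) of the 12 members with the highest rank (y axis, nearest protein-coding gene), with 1 symbol per library: circles for replicate 1, squares for replicate 2, orange for MEF, light blue for DAY6 and dark blue for DAY9, each stage slightly offset. The dashed lines are the higher DAY3 limit (3.03) and the higher ESC limit (3.35), and every MEF and DAY9 symbol lies to their right; a missing light blue symbol is a missing DAY6 peak.

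The plot of the 12 members by library shows that all of them stood above the detection limits of both stages in which they had no peak. Their DAY6 state still differed: Camk1d (the nearer member), Rgs4, Cpm and Epha7 had both DAY6 peaks, Nectin4, Uqcrc1 and Tamm41 had none, and the other 5 had 1.

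At the other end were members at the edge of the rule. The lowest rank belonged to the member near Lgalsl at chr11:20909490-20909937, with folds of 2.42 and 2.69 in MEF and 5.64 and 2.87 at DAY9, and the next to that near Mc3r at chr2:172221570-172222125, with 5.44 and 2.54 in MEF and 4.92 and 4.06 at DAY9. The third lowest lay inside Slx4ip, with 3.04 and 2.51 in MEF and 3.20 and 2.78 at DAY9. In each, 1 MEF peak was close to the end of its list, with a −log10 p-value between 5.05 and 5.09. Just outside the rule were 258 regions that failed it by 1 DAY3 peak, with −log10 p-values from 5.04 to 17.0 (median 6.89), and 404 that failed it by 1 ESC peak, from 5.01 to 130 (median 8.34). Of the former, those near Insig1, BC107364 and Cenpo had the weakest DAY3 peak, with folds of 2.83, 2.35 and 2.84. Of the latter, those near Dynlt1b, Anks1b and Ctc1 had the weakest ESC peak, with folds of 3.15, 2.69 and 2.37.

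At day 6, which the rule did not use, the members were split. Both DAY6 libraries had a peak at 78 members (24.1%, 95% Wilson interval 19.7 to 29.0%, counting error only, since regions are not independent), 1 library at 124 (38.3%) and neither at 122 (37.7%). Replicate 1 had a peak at 141 members (43.5%) and replicate 2 at 139 (42.9%). Of all merged regions, 21.7% had both DAY6 peaks, and of all 21241 regions with both MEF and both DAY9 peaks, 88.9%. Among regions that differ from the members in 1 stage, both DAY6 peaks were present at 81.2% of the 970 that also had both DAY3 peaks, 51.2% of the 929 that also had both ESC peaks, 24.1% of the 10001 without a MEF peak and 0.253% of the 17788 without a DAY9 peak. The members' share was close to that of day 9 regions with no fibroblast peak and below that of regions open at day 3 or in ESC as well. The difference was not tested, since all classes were read in the same 2 DAY6 libraries and regions are not replicates.

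**Figure D3:**
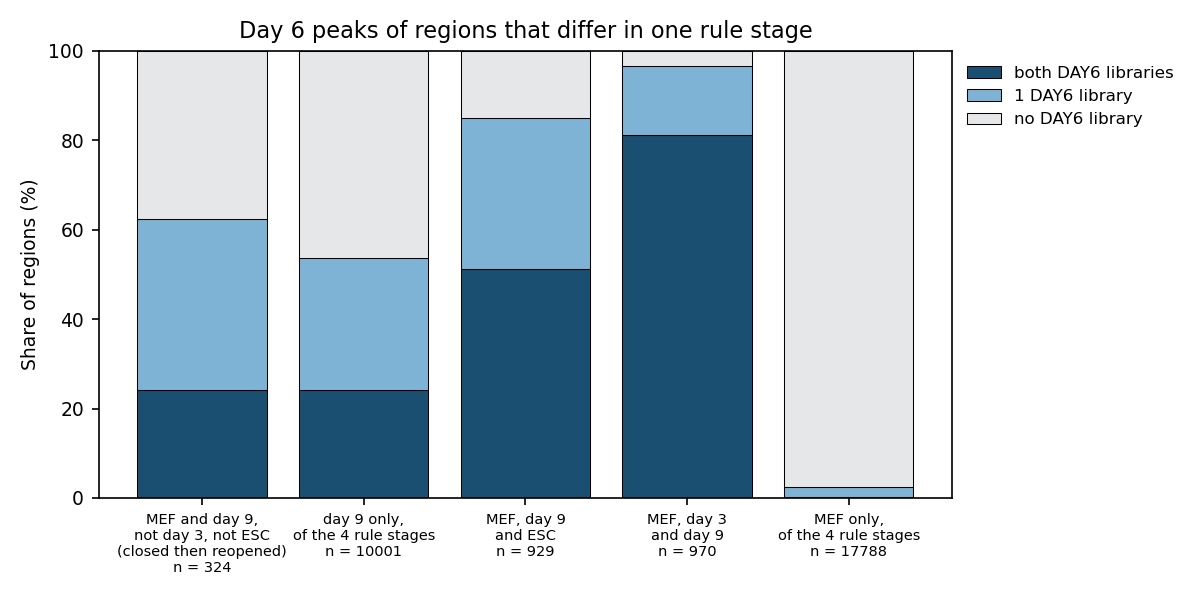
Share of regions (y axis, percent) with a peak in both, 1 or neither DAY6 library, for the members and for 4 classes of regions that differ from them in 1 stage (x axis, with the number of regions). The dark part, both libraries, is 24.1% for the members and for the class without a MEF peak, 51.2% and 81.2% for those also open in ESC or at DAY3, and 0.253% for those without a DAY9 peak.

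The bars of DAY6 state compare classes of unequal strength at day 9, so the shares are also given by that strength. Among members with a mean DAY9 percentile below 25, 13.2% of 129 had both DAY6 peaks, from 25 to 50 27.2% of 136, and from 50 upwards 40.7% of 59. Regions without a MEF peak had 10.2%, 18.3% and 45.1% in the same bins. Regions also open in ESC had 26.6%, 43.6% and 75.1%, and those also open at DAY3 58.3%, 79.0% and 92.2%. Within each bin the members' share with both DAY6 peaks stood nearer to the regions without a fibroblast peak than to the other classes. For a peak in at least 1 DAY6 library this did not hold in the middle bin, with 69.1% of members, 51.1% of regions without a MEF peak and 83.7% of those also open in ESC. Of 102 members above the higher DAY6 detection limit (3.61) in both DAY9 lists, 35 (34.3%) had both DAY6 peaks and 26 (25.5%) had none.

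**Figure D4:**
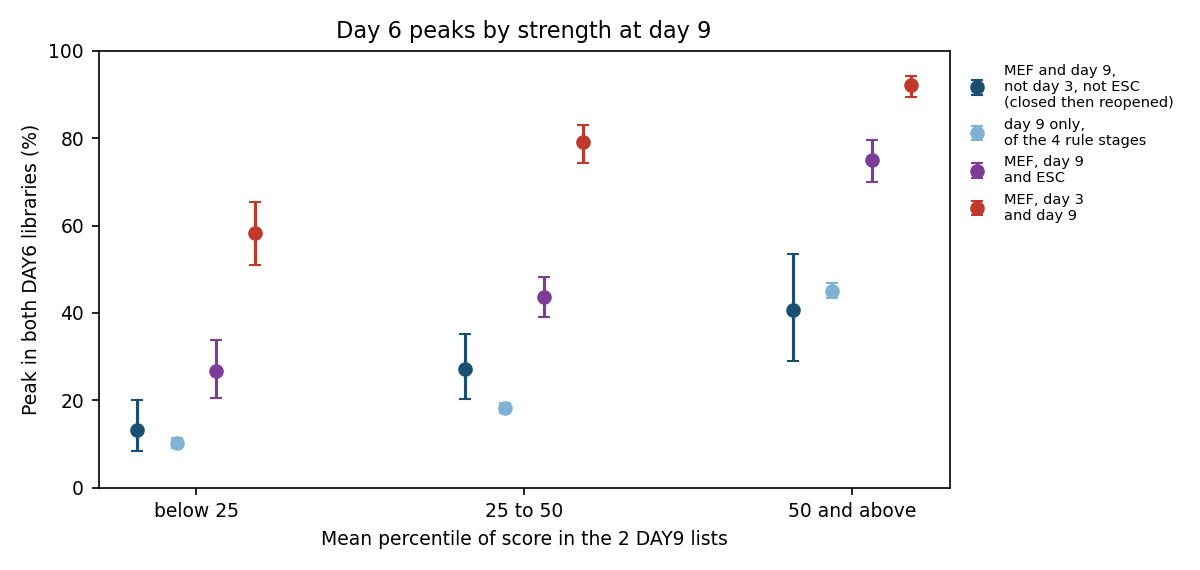
Share of regions with a peak in both DAY6 libraries (y axis, percent) by mean percentile of the score in the DAY9 lists (x axis, 3 bins), for the members and for 3 classes. Points are shares and bars 95% Wilson intervals, which cover counting error only; in the top bin the members reach 40.7%, those without a MEF peak 45.1%, and those also open in ESC or at DAY3 75.1% and 92.2%.

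The plot by strength gives the rise with DAY9 strength in all 4 classes. Camk1d, Rgs4, Cpm and Epha7 were among the strongest members with both DAY6 peaks. The strongest members without any DAY6 peak beyond Nectin4, Uqcrc1 and Tamm41 were near Eci2, a gene of fatty acid oxidation, and inside Peli2, which encodes a ubiquitin ligase. The one near Eci2, at chr13:35188728-35189771, had 7.47 and 3.65 in MEF and 9.87 and 8.39 at DAY9. The one in Peli2, at chr14:48189327-48190536, had 9.20 and 5.26 in MEF and 5.08 and 4.42 at DAY9.

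The middles of the fibroblast and day 9 peaks did not always coincide. The middles of the MEF and DAY9 peaks of a member lay within 200 bp of each other in 68.2% of members in replicate 1 and 67.3% in replicate 2, against 92.3% between the MEF lists and 96.0% between the DAY9 lists. For regions also open at DAY3 the 2 values were 73.1% and 72.7%, and for those also open in ESC 78.7% and 79.1%. Both pairs were within 200 bp in 198 members (61.1%); of these 24.7% had both DAY6 peaks, and of the other 126, 23.0%. In 2 members, near Cacna2d1 (a calcium channel subunit) and Igsf9b (an immunoglobulin superfamily protein), the MEF and DAY9 peaks shared no base. They were joined by DAY6 peaks. These members were singled out after their values were seen. Over all members the median overlap of the MEF and DAY9 peaks was 95.3% of the shorter peak in replicate 1 and 91.8% in replicate 2.

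Distances to peaks of the missing stages are given for the members alone. A DAY3 peak lay within 500 bp of 12 members, within 1 kb of 30 and within 5 kb of 116 (35.8%), with a median distance of 8.88 kb. For ESC peaks the counts were 16, 42 and 166 (51.2%), with a median of 4.77 kb. The ESC lists hold more peaks (86585 and 88980, against 45766 and 45497 at DAY3), so these distances do not rank the stages. A region open in all 10 lists lay within 5 kb of 10.8% of the members, 9.90% of the regions also open at DAY3, 9.69% of those also open in ESC, 7.85% of those without a MEF peak and 6.62% of those without a DAY9 peak.

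Most members lay away from gene starts. Within 1 kb of a protein-coding gene start lay 21 members (6.48%), against 9.05% of all merged regions, 8.14% of the regions also open at DAY3, 15.5% of those also open in ESC, 3.25% of those without a MEF peak and 2.09% of those without a DAY9 peak. Of all regions with both MEF and both DAY9 peaks it was 53.3%. For genes without a listed start either end was counted, in every class. With listed starts alone the members' share was 4.63%. The median distance to a start was 23.0 kb, nearer than the 32.3 kb of all merged regions. It was 30.3 kb for regions also open at DAY3 and 16.8 kb for those also open in ESC. Without a MEF peak it was 33.3 kb and without a DAY9 peak 47.0 kb. For all regions with both MEF and both DAY9 peaks it was 0 kb. Inside a protein-coding gene were 166 members (51.2%), against 51.3% of all merged regions. The members were 679.5 bp wide in the median, against 509 bp for all merged regions. Regions also open at DAY3 were 916 bp wide, and those also open in ESC 741 bp. All regions with both MEF and both DAY9 peaks were 1069 bp wide, those without a MEF peak 521 bp and those without a DAY9 peak 560 bp. Chromosome 1 held 29 (8.95%, against 7.50% of all merged regions), chromosome 4 28 (8.64%, against 6.19%), chromosome 11 25 (7.72%, against 5.48%) and the X chromosome 2 (0.617%, against 2.61%).

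Members at gene starts are named for their position, after their values were seen. With both DAY6 peaks were those at Tmem254b, Pik3r1, Cdk2ap2, Pigq, Gm14685, Tank, Matk, Ddn and Sprr1a; 9 of the 78 members of that state (11.5%) were at a start, against 5 of 124 (4.03%) with 1 DAY6 peak and 7 of 122 (5.74%) with none. Those at Tha1, Cckar, Trim47 and Lgi3 had 1. Those with none were at Trhr2, Eml1, Msantd1, H2-Eb1, Arhgef10l, Krt80 and Kcnk4. No promoter window touched the members at Trhr2, Cckar and Lgi3, so the start counted there may be either end of a gene. The strongest by rank was at Trhr2, a receptor of thyrotropin-releasing hormone, at chr8:122355484-122356781. Its folds were 4.33 and 3.74 in MEF and 7.91 and 7.35 at DAY9. At Pik3r1, the regulatory subunit of phosphoinositide 3-kinase, the member at chr13:101692154-101692695 had 3.30 and 3.54 in MEF, 3.17 and 4.11 at DAY6 and 4.21 and 3.44 at DAY9. At Trhr2 DAY9 lay above MEF by fold and by percentile, and at Pik3r1 the stages overlapped. Tmem254b has near-identical copies beside it, so reads there are uncertain.

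The members had 315 different nearest genes. Of 21887 protein-coding genes, 654 (2.99%) had a member within 50 kb, and of 489 distinct genes on 20 lists of pathways and cell types, 13 (2.66%), a share near that of all genes. None of 36 fibroblast matrix genes, 18 AP-1 factors, 10 Runx and Cebp factors, 36 pluripotency genes, 35 inflammatory and Il1 receptor genes, 23 extraembryonic genes or 17 genes of stratified epithelium had one. Of 62 mesodermal and mesenchymal transcription factors 1 had a member within 50 kb. Further lists had 3 of 39 contractile and adhesion genes, 3 of 43 epithelial genes, 2 of 28 genes of the TGF-beta pathway, 1 of 25 of the Tead and Yap pathway, 1 of 12 endothelial markers and 1 of 12 adipocyte and cartilage markers. None of 17 senescence and p53 genes and none of the macrophage and blood (12), skeletal muscle (12), neural (12) or neural crest and Schwann cell (10) markers had one.

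Ebf2 and Foxf2 were among the mesenchymal factors nearest to a member. The one 53.5 kb from Ebf2, a factor of mesenchymal and brown fat precursors, at chr14:67484487-67485909, had folds of 6.79 and 4.61 in MEF, 4.27 and 3.91 at DAY6 and 3.60 and 3.46 at DAY9. MEF lay above DAY9 by fold and by percentile (59.7 and 65.3 against 31.8 and 29.0), and the DAY6 percentiles were 30.0 and 14.4. The one 1.05 kb from Foxf2, a forkhead factor of mesenchyme, at chr13:31632454-31632885, had 4.98 and 2.68 in MEF, no DAY6 peak and 2.76 and 2.87 at DAY9. The Foxf2 values at DAY9 were below the DAY3 limit, and those of the stages overlapped.

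Among cytoskeletal and signalling genes, Cnn3, Smurf1, Jup and Sox6 were nearest to 1 member each. Inside Cnn3, which encodes an actin-binding calponin, the member at chr3:121433900-121434549 had 10.5 and 4.08 in MEF and 3.08 and 2.32 at DAY9. Inside Smurf1, a ubiquitin ligase of Smad signalling, the member at chr5:144949712-144950289 had 5.99 and 4.90 in MEF and 2.91 and 3.44 at DAY9. Inside Sox6, a factor of cartilage formation, the member at chr7:115734245-115734689 had 9.06 and 3.75 in MEF and 2.77 and 2.50 at DAY9. All of these were lower at DAY9 than in both MEF libraries and had no DAY6 peak. Inside Jup, the plakoglobin gene of desmosomes and adherens junctions, the member at chr11:100387586-100388454 had 6.57 and 3.94 in MEF, 3.12 in DAY6 replicate 2 alone and 2.23 and 2.19 at DAY9, with an ESC peak 552 bp away.

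Further listed genes had a member within 50 kb that was nearer to another gene; they are named after their values were seen. They were Actn4 and Itga5 (an actin cross-linker and the alpha chain of the fibronectin receptor), Acvr2b (an activin receptor), Krt7 and Tjp3 (a keratin and a tight junction protein), Cdh5 (the cadherin of blood vessels) and Vgll4 (a cofactor of Tead), the last with 2 members. The member near Acvr2b had both DAY6 peaks, with folds of 4.30 and 3.43 in MEF, 4.49 and 3.61 at DAY6 and 2.88 and 2.63 at DAY9. The nearer one at Vgll4, 5.86 kb away, had 3.61 and 3.33 in MEF, 3.68 in DAY6 replicate 1 and 3.48 and 2.99 at DAY9. Both of these members were weak at DAY9, and neither was above the DAY3 limit in both DAY9 lists. The other member near Vgll4 was the strong one named above by Tamm41, with 9.85 and 8.79 at DAY9.

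The members were scattered along the genome. Within 50 kb of each other lay 19 members in 9 runs, and 1 run held 3 members. That run spanned 96.3 kb on chromosome 13 around Slc28a3, a nucleoside transporter gene and the 1 gene nearest to 3 members; 7 genes (Plxna2, Kcnip1, Tmpo, Sybu, Camk1d, Tuft1 and Camta1) were nearest to 2. The Slc28a3 member at chr13:58543058-58543544 had folds of 6.58 and 3.39 in MEF and 3.96 and 2.63 at DAY9, that at chr13:58589388-58589861 6.41 and 5.19 in MEF and 2.64 and 2.99 at DAY9, and that at chr13:58638911-58639337 3.01 and 3.75 in MEF and 2.64 and 2.75 at DAY9. The second had a DAY6 peak in replicate 1, with a fold of 3.37, and the others had none. By percentile the first lay higher in MEF (60.4 and 47.0 against 38.6 and 2.14 at DAY9), though its folds overlapped. In the third the folds were higher in MEF, but the percentiles overlapped (0.621 and 50.7 in MEF, 2.14 and 7.19 at DAY9). In all 3 at least 1 DAY9 peak was at 2.64 or 2.63, the smallest that the DAY9 lists hold against their common background.

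Members that shared a nearest gene differed at day 6 at some genes and not at others. They are given for 4 of the 7 genes, chosen after their values were seen. At Tmpo, which encodes a protein of the nuclear lamina, the member inside the gene at chr10:91158015-91159005 had folds of 11.6 and 6.71 in MEF, 3.52 and 4.35 at DAY6 and 2.98 and 3.46 at DAY9, and that at chr10:91141501-91142014 had 3.77 and 3.33, 3.03 and 4.21, and 2.48 and 2.71. Both Tmpo members had both DAY6 peaks and were lower at DAY9 than in MEF. Near Sybu, a gene of axonal transport, the member at chr15:44851221-44852186 had 7.47 and 5.69 in MEF, no DAY6 peak and 6.72 and 3.82 at DAY9, while that at chr15:44836153-44836682 had 6.14 and 2.79 in MEF, 4.25 and 4.51 at DAY6 and 4.92 and 3.34 at DAY9. The stronger Sybu region was thus the one without DAY6 peaks. At Plxna2, a semaphorin receptor gene, the member inside the gene at chr1:194682832-194683613 had 10.4 and 3.47 in MEF, no DAY6 peak and 3.96 and 5.37 at DAY9. The one 4.06 kb outside Plxna2, at chr1:194820929-194822311, had 4.48 and 4.18 in MEF, 5.56 in DAY6 replicate 1 alone and 4.56 and 5.02 at DAY9. Its DAY9 folds lay above those of MEF, but the percentiles overlapped (38.9 and 59.0 in MEF, 47.4 and 52.6 at DAY9). Around Tuft1, a gene of tooth enamel, the member at chr3:94621669-94622574 had 4.60 and 3.31 in MEF, 6.01 in DAY6 replicate 2 and 6.03 and 6.33 at DAY9, and that at chr3:94601986-94602403 had 4.30 and 2.90, 3.59 in DAY6 replicate 1, and 2.64 and 4.30. The Tuft1 members were each listed in a different DAY6 library.

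The membership depends on how many peaks a list holds. With the 45497 strongest peaks of every list, the length of the shortest, the rule kept 80 regions, of which 38 were among the 324 (11.7%). Of the 38, 13 had both DAY6 peaks, 14 had 1 and 11 had none. The 12 members of highest rank were all among the 38. That follows from their choice by high percentile in the MEF and DAY9 lists and adds no support for them. The number of members rose to 862 without MEF replicate 2, to 498 and 499 without DAY9 replicates 1 and 2, and to 493 and 561 without ESC replicates 1 and 2.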

How the data were processed

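ATAC-seq was measured in 10 libraries, 2 at each of 5 stages, and groups follow the labels. The submitters' processing notes name Bowtie2 2.3.2, MACS2 2.1.1, deepTools 2.3.6 and the build mm10, with no role given; other settings are not given in the sources used here. The authors deposited 1 peak list per library, not for pooled libraries, in the narrowPeak layout. Its columns as deposited are a score, a linear fold enrichment (ratio), and −log10 p- and q-values; no listed −log10 p-value was under 5, and no summit positions are given.

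Peaks were merged at 1 bp overlap with Python 3.11.15, pandas 2.3.3 and numpy 2.4.6. The score gave each peak's percentile within its list. The pileup was recovered from fold = (n + 1) / (expected + 1) and the Poisson p-value with scipy 1.17.1, matched within 0.01 of the deposited −log10 p; the expected pileup met most often is the list background, and the method was tested on simulated data. The noise ratio of 2 libraries was taken at pileups of 100 to 200 and is 1 for counting noise. Libraries that differed by little more (DAY3, DAY9) count as 1 sample each, which leaves 8 samples. Intervals are 95% Wilson intervals. Genes come from RefSeq on GRCm38.p6, the same assembly as mm10: 21887 protein-coding genes, 17492 with a start in the promoter table; for the other 4395 either end was used. The promoter table is not complete. Results for a few genes are not reported here. Exon and intron positions and motifs in whole regions were not analysed here.

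Members were named by a rule: the 12 with the highest lowest percentile, up to 5 by DAY6 state, up to 3 by gene list, genes nearest to 3 or more members, and those just inside and outside the rule. Others were named after their values were seen, as the text says. The members, lists and rules were chosen with earlier results of these data known. No test was made, since the rule used 8 of the 10 libraries and regions are not replicates. Alternatives covered list length, overlap, cut-offs, windows and libraries left out.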

Additional observations from a re-analysis of the deposited data

How the results depend on the processing

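The number of members, their share, DAY6 state and position, and the share of genes near them were recomputed under other settings. Apart from the libraries left out in turn, 25 of these values were kept and 21 moved. The 25 include the values for an overlap of 50% of a peak or of the region, which could not move. The other descriptions were not recomputed. The number of members (324) became 80 with equal numbers of peaks, 142 with the top 50% of each list, 2334 with a peak in either library of a stage, and 2775 and 1445 with replicate 1 or replicate 2 of every stage as a replicate block. A count does not say which regions: 38, 8, 324, 311 and 298 of the 324 were among them. A q-value threshold left the values close (252 members) but kept 105 of the 324 (32.4%). The share of fibroblast regions without day 3 and ESC peak that had DAY9 peaks (1.75%) became 0.706%, 1.47%, 4.84%, 7.04% and 4.15% in the same order, and 1.43% when a peak had to cover 50% of the region, where 145 members remained. Both DAY6 peaks (24.1%) were found at 31.7% in the top 50%, 14.4% with either library, 51.0% and 38.0% in the replicate blocks, where 1 DAY6 library is asked for, and 29.2% of members above the DAY3 limit. The share within 1 kb of a gene start (6.48%) became 15.5% in the top 50%, 10.3% at 50% of the region and 9.88% at 2500 bp. Genes with a member near (2.99% at 50 kb) were 1.67% at 20 kb and 4.99% at 100 kb. Leaving out 1 library in turn gave 320 to 862 members, shares of 1.50 to 2.91%, 19.2 to 43.8% with the DAY6 peaks (the highest with 1 DAY6 library left) and 6.03 to 7.31% at a start; without MEF replicate 2 there were 862 members, without DAY9 replicates 1 and 2 498 and 499, and without ESC replicates 1 and 2 493 and 561. The share was 2.70% without either DAY9 library and 2.91% without ESC replicate 2. Replicate numbers did not pair the libraries: correlations of replicate differences between stages were −0.01 to 0.02. No paired analysis was possible because no result comes from a test. An overlap of 50% of a peak or of the region is met by construction; summit windows and motif windows of another length were not run. The alternatives on 50% of the region, 500 bp windows, promoter-table starts and the DAY3 limit were chosen after seeing the data. By the higher limit of each stage, 111 members lay below that of ESC in both DAY9 lists, and 66 below that of DAY3. The lower ESC limit (2.94) was below both DAY3 limits (3.01 and 3.03), so these counts do not rank the 2 stages.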
